A study of Homo sapiens with 40 samples.

Results

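The 46 genes described here take part in the cellular response to low oxygen and in glycolysis, and were chosen by symbol from 60708 genes in the count tables. They comprise 5 sensors and subunits of the hypoxia-inducible factors (HIFs), 9 secreted or surface HIF targets, and 10 intracellular HIF targets. The others are 5 genes of glucose uptake and flux control, and 17 genes of glycolytic enzymes. P4HA1 and P4HA2, which modify collagen inside the cell, are counted with the secreted or surface targets. RNA was sequenced from 24 libraries in 8 groups of 3. MCF-10A, an immortalized breast epithelial cell line, and its HRAS-transformed derivative MCF-10AneoT were grown as spheres in ultra-low attachment wells and are called MI and MII. Spheres were left untreated (Ctrl) or received 2.5 ng/ml TGFβ1 for 16 h (TGFβ), and both lines carried no other labelled change. MDA-MB-231, a triple-negative breast cancer cell line, was grown as a 2D culture without added TGFβ and was either untreated (WT) or carried a CRISPR/Cas9 SLUG knockout (SLUG KO, the gene SNAI2), made from expanded single-cell colonies, so that the knockout group may also carry differences of a clone. The same line, of WT genotype, was transfected with a control scramble siRNA (Csi) or with siRNAs against SMAD2, SMAD3 and SMAD4 (siSMAD2/3/4). The labels name no oxygen level. Nothing in the labels says that libraries of a group came from separate cultures, so p-values measure only the spread between these libraries.

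HIFs are transcription factors made of an oxygen-labile alpha subunit, HIF-1α or HIF-2α (the genes HIF1A and EPAS1), and the stable partner ARNT. In the presence of oxygen, prolyl hydroxylases of the EGLN family mark the alpha subunits for degradation, so that HIF activity is set largely at the protein level, which was not measured here. Stabilized HIFs bind a short DNA core and raise genes that lower oxygen use, raise glucose uptake, run glycolysis to lactate, export acid and call for blood vessels. TGFβ signals through SMAD2 and SMAD3 with SMAD4, and cells in the middle of spheres can lie far from the oxygen of the medium.

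Total counts ranged from 14124688 to 38406952 per library, and in 7 groups every pair of replicates reached a Pearson's r of 0.984 or more over genes. The WT group stood apart: replicate 2 correlated at 0.957 and 0.952 with replicates 1 and 3, and carried 2.4% mitochondrial counts against 0.812% and 0.656%. Counts of members called in SLUG KO against WT are therefore given with and without it. Other WT values, such as shares, marker sums and counts of other lists, include it. HRAS measured 40.8 CPM (CPM are counts scaled to a common library size, with TMM factors) in untreated MI- and 220.4 CPM in untreated MII-spheres (log2 fold-change 2.45 ± 0.044, adjusted p = 1.23e-45). SMAD2 (log2 fold-change -1.92 ± 0.052, adjusted p = 2.65e-22), SMAD3 (-0.69 ± 0.041) and SMAD4 (-1.72 ± 0.062) were lower with their siRNAs. SNAI2 RNA went against a simple reading of the knockout label, with 30.2, 20.9 and 33.7 CPM in WT and 63.6, 57.8 and 64.3 CPM in the libraries labelled SLUG KO (log2 fold-change 1.10 ± 0.21, adjusted p = 0.0399). A Cas9 indel need not lower RNA, so the RNA level cannot check this label, and the group is called by it only as a label. According to the paper, ddPCR and immunoblotting were used to check the knockout clones. Of 6 markers of basal mammary epithelium, all 6 reached 1 CPM in MI-Ctrl and 5 in MII-Ctrl (TP63 was lower), whereas KRT5, KRT14 and CDH3 were under 1 CPM in every MDA-MB-231 group. Of 5 leukocyte markers, 4 or all 5 were under 1 CPM in every group.

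The first comparison asked how TGFβ changed these genes in MI-spheres. Most were higher, led by the carbonic anhydrase CA9 at 23.3-fold and the aldolase ALDOC at 9.55-fold. Next came the collagen hydroxylase P4HA1 at 4.26-fold and lactate dehydrogenase A at 4.11-fold. HIF1A was 1.92-fold higher and EPAS1 1.61-fold lower. Of the 45 members with enough counts to test, 37 were higher with TGFβ and 6 were lower, against a background of 28.7% of all 16863 genes tested that were higher and 27.4% that were lower (edgeR's quasi-likelihood test, Benjamini-Hochberg adjusted p under 0.05 over all genes). The median log2 fold-change was 0.94 over the members and -0.016 over all genes tested. A rise above 1 on the log2 scale was called for 22 members, and for 3.64% of all genes, and a fall below -1 for 1 member, ANKRD37, and 9.92% of all genes. Groups did not overlap for the called members, with INSIG2 as the exception. The share of all called genes without overlap was not computed, so this describes single genes and does not set the members apart. All 17 glycolytic enzymes, all 4 tested genes of glucose uptake and flux control, 7 of 9 secreted or surface targets and 7 of 10 intracellular targets were higher. EPAS1, ARNT, EGLN3, ADM, ANKRD37 and INSIG2 were lower, and ANGPTL4 and HILPDA were not called. Scaling by total counts in place of TMM, an alternative chosen after the data were seen, lowered the median of all genes by 0.138 in this comparison and by 0.132 in the next. It left 33 members higher and 7 lower here, with 19.4% and 37.4% of all genes. EGLN1, CA12, KDM3A and HK2 were then not called.

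In MII-spheres CA9 was 8.30-fold higher on few counts, followed by BNIP3 at 3.38-fold, P4HA1 at 2.93-fold, ALDOC at 2.80-fold and LDHA at 2.76-fold. ANKRD37 was 3.28-fold and the oxygen sensor EGLN3 2.38-fold lower. Higher levels were called for 29 of 45 members and lower levels for 8, where 29.9% of all 16396 genes tested were higher and 27.6% lower. The median log2 fold-change was 0.41 over the members and -0.018 over all genes. Rises above 1 on the log2 scale were called for 9 members and 3.12% of all genes, and falls below -1 for 3 members and 7.5% of all genes. Groups did not overlap for any of the 37 called members, again without a share over all called genes to compare. Of the enzymes, 16 of 17 were higher and HK2, a hexokinase that starts glycolysis, was lower. Of the secreted or surface targets 5 of 9 were higher, and of the intracellular targets 4 of 10. With total counts in place of TMM, 25 members were higher and 12 lower, with 19.5% and 39.1% of all genes, and CA12, LOX, MXI1 and ALDOA lost their call.

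The difference between the lines was tested as an interaction over the 12 sphere libraries. The response, taken as the log2 fold-change with its sign, was lower in MII- than in MI-spheres for 27 members and higher for 2. Of all 18591 genes tested, 9.75% were lower and 12.6% higher. A lower value is not always a weaker change: EGLN3 and ADM fell more in MII-spheres, and ANGPTL4 fell there alone. The 29 members that were higher with TGFβ in both lines included 18 with a called difference between the responses. PFKFB3 and HK2 were higher in MI- and lower in MII-spheres, and both interactions were called. EGLN1, VEGFA, STC2, NDRG1, KDM3A and DDIT4 were higher in MI-spheres and not called in MII-spheres, and the interaction was called for VEGFA, STC2, NDRG1 and DDIT4. In the plot of log2 fold-changes by role, the points of MII-spheres lie mostly to the left of those of MI-spheres.

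**Figure D1:**
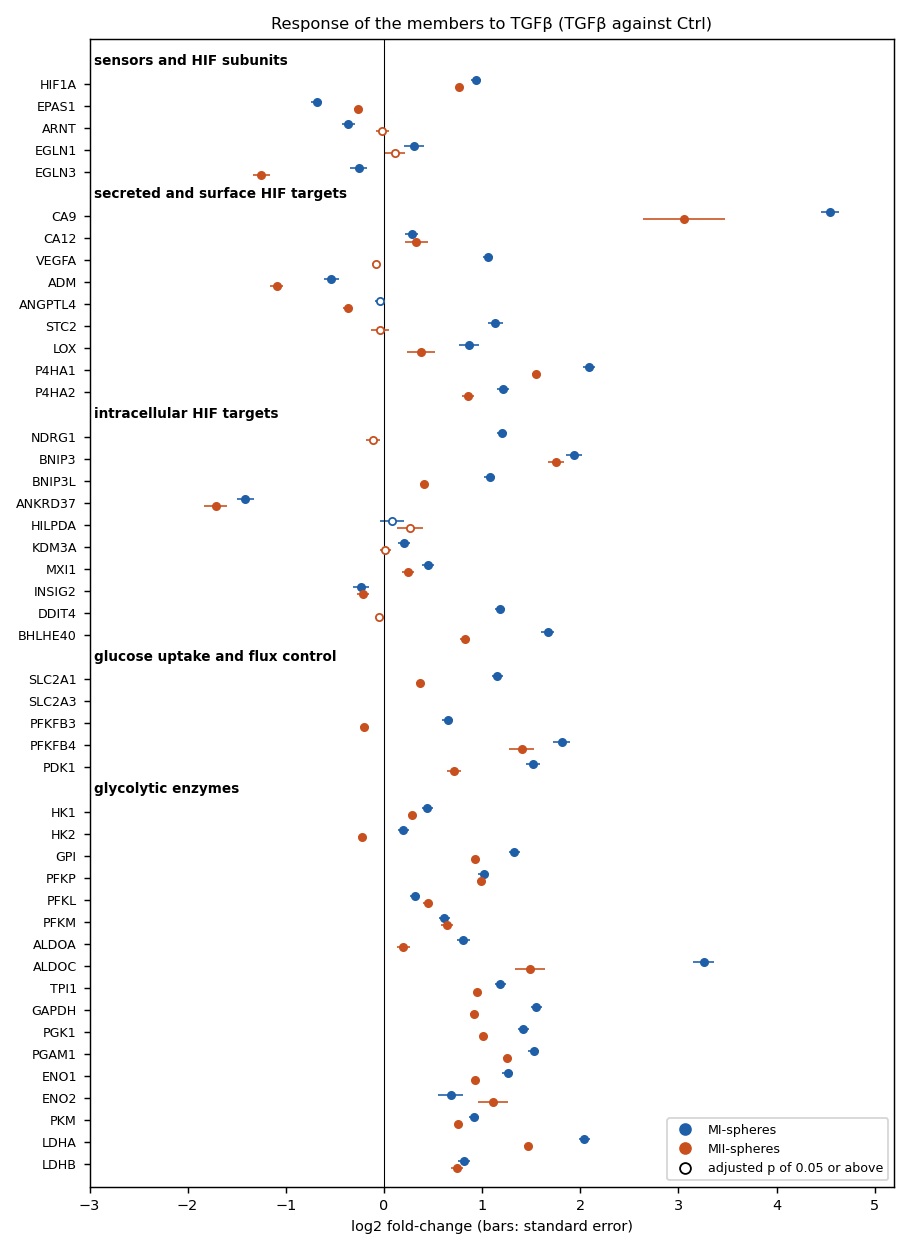
Log2 fold-change (x axis) of each member (y axis, grouped by role) for TGFβ against Ctrl in MI- and MII-spheres, with standard errors as bars and open circles for an adjusted p of 0.05 or above; 3 libraries a group. In MI-spheres 37 members were higher and 6 lower, in MII-spheres 29 and 8; SLC2A3 was too low in spheres to be tested.

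Markers and library measures moved with TGFβ as well. The summed level of the 6 basal markers went from a range of 777 to 788 CPM to 1597 to 1748 CPM in MI-spheres, and from 601 to 631 CPM to 1122 to 1134 CPM in MII-spheres. The 6 markers of mesenchymal carcinoma cells went from 252 to 258 CPM to 600 to 649 CPM in MI-spheres and from 297 to 301 CPM to 367 to 393 CPM in MII-spheres. The 8 luminal markers went from 1776 to 1806 CPM to 2067 to 2204 CPM in MI-spheres and from 3002 to 3030 CPM to 3711 to 3876 CPM in MII-spheres. The 4 endothelial markers went from 31.4 to 34.5 CPM to 13.3 to 14.7 CPM in MI-spheres and from 114.4 to 117.2 CPM to 97.3 to 108.3 CPM in MII-spheres. The 6 fibroblast markers went from 19.3 to 21.8 CPM to 25.1 to 27.3 CPM and from 9.001 to 10.8 CPM to 4.27 to 5.41 CPM. In both MII groups only 2 of 4 endothelial and 1 of 6 fibroblast markers reached 1 CPM. In MI-spheres 3 of 4 endothelial markers did. Of the fibroblast markers, 3 of 6 did in MI-Ctrl and 2 in MI-TGFβ, where LUM was under 1 CPM. These sums can thus rest on single genes. Mitochondrial counts went from 0.687 to 0.789% to 0.423 to 0.572% in MI-spheres, and from 1.41 to 1.66% to 1.02 to 1.18% in MII-spheres. Their part in the results was not tested, and in bulk RNA more cells of one state and more RNA per cell cannot be told apart.

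Among the sensors and HIF subunits, the alpha subunits moved in opposite directions. HIF1A (ENSG00000100644.17, GRCh38 chromosome 14, positions 61695513 to 61748259, plus strand) measured 485, 468 and 485 CPM in MI-Ctrl and 956, 928 and 1043 CPM in MI-TGFβ libraries (log2 fold-change 0.94 ± 0.051, adjusted p = 2.18e-12). In MII-spheres it measured 276, 280.0 and 281 CPM without and 489, 484 and 483 CPM with TGFβ (log2 fold-change 0.76 ± 0.034, adjusted p = 1.36e-25). The stimulated MII-spheres thus lay at the level of the unstimulated MI-spheres. EPAS1 (ENSG00000116016.14, GRCh38 chromosome 2, positions 46293667 to 46386697, plus strand), the other alpha subunit, fell from 201, 202 and 196 CPM to 135.2, 135.2 and 123.5 CPM in MI-spheres (log2 fold-change -0.68 ± 0.055, adjusted p = 1.38e-09). In MII-spheres it fell from 149, 155 and 148 CPM to 125.2, 137 and 123.3 CPM (log2 fold-change -0.26 ± 0.043, adjusted p = 7.03e-07), and this smaller fall gave a positive interaction (difference in log2 fold-change 0.43 ± 0.071, adjusted p = 1.09e-05). Per kilobase of exon, HIF1A made up 77.3% ± 0.581 (SD, n = 3) of the 2 alpha subunits in MI-Ctrl and 91.3% ± 0.868 in MI-TGFβ, and 72.4% ± 0.527 and 84.3% ± 0.790 in the corresponding MII groups. ARNT, the shared partner, was lower in MI-spheres (log2 fold-change -0.36 ± 0.070, adjusted p = 0.000187) and not called in MII-spheres (-0.016 ± 0.067). EGLN3, an oxygen sensor that is itself a HIF target, fell from 28.8, 30.4 and 28.9 CPM to 11.9, 12.5 and 13.7 CPM in MII-spheres (log2 fold-change -1.25 ± 0.083, adjusted p = 1.19e-18), and far less in MI-spheres (-0.26 ± 0.085). The difference between the lines was called (difference in log2 fold-change -0.98 ± 0.12, adjusted p = 3.09e-08). EGLN1, the main sensor in most cells, was slightly higher in MI-spheres (log2 fold-change 0.31 ± 0.11, adjusted p = 0.0180) and not called in MII-spheres. Its exons share 55.8% of their length with another annotated gene, where fragments were not counted. The stimulated and unstimulated groups did not overlap for HIF1A and EPAS1 in either line.

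The secreted and surface targets held the steepest rise of the 46 genes. CA9 (ENSG00000107159.13, GRCh38 chromosome 9, positions 35673918 to 35681159, plus strand) encodes carbonic anhydrase IX, a surface enzyme that helps to export acid, and is a standard marker of hypoxia. It measured 2.97, 2.51 and 3.33 CPM in MI-Ctrl and 71.4, 69.5 and 76.02 CPM in MI-TGFβ libraries, a 23.3-fold rise (log2 fold-change 4.54 ± 0.094, adjusted p = 2.51e-19). In MII-spheres the counts were 2, 7 and 4 fragments without and 28, 28 and 24 fragments with TGFβ (log2 fold-change 3.05 ± 0.42, adjusted p = 1.25e-08). The groups did not overlap in either line, but the stimulated MII-spheres stayed below the unstimulated MI-spheres. Its exons share 36.1% of their length with ARHGEF39 and strand was ignored, so its level is uncertain. CA12, a second surface carbonic anhydrase, rose by 1.22-fold in MI- and 1.26-fold in MII-spheres. P4HA1 and P4HA2, the alpha subunits of collagen prolyl 4-hydroxylase, rose in both lines: P4HA1 (ENSG00000122884.13, GRCh38 chromosome 10, positions 73007217 to 73096974, minus strand) went from 105.2, 109.5 and 106.4 CPM to 471, 438 and 540.0 CPM in MI-spheres (log2 fold-change 2.09 ± 0.061, adjusted p = 7.01e-17) and from 95.1, 90.7 and 91.4 CPM to 276, 277 and 277 CPM in MII-spheres (log2 fold-change 1.55 ± 0.040, adjusted p = 2.65e-36). P4HA2 rose by 1.21 ± 0.058 and 0.86 ± 0.061 on the log2 scale. LOX, which crosslinks collagen, rose by 0.87 ± 0.099 in MI- and 0.38 ± 0.14 in MII-spheres.

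VEGFA, the leading signal for new blood vessels, was called in MI-spheres alone. It rose from 114.3, 115.6 and 109.9 CPM to 255, 252 and 241 CPM in MI-spheres (log2 fold-change 1.06 ± 0.053, adjusted p = 5.3e-13). In MII-spheres it measured 212, 216 and 207 CPM without and 206, 202 and 206 CPM with TGFβ and was not called (log2 fold-change -0.084 ± 0.038, adjusted p = 0.0526). The interaction was called (difference in log2 fold-change -1.13 ± 0.065, adjusted p = 7e-17), and the unstimulated MII libraries already lay above the unstimulated MI libraries. STC2, a secreted glycoprotein that lowers calcium entry, was also called in MI-spheres alone, with 24.3, 22.9 and 19.8 CPM and 50.7, 53.4 and 52 CPM in MI-spheres and 14.7, 15.1 and 13.6 CPM and 15.02, 13.8 and 14.5 CPM in MII-spheres (difference in log2 fold-change -1.16 ± 0.12, adjusted p = 3.51e-10). Unlike for VEGFA, the unstimulated MII libraries lay below the unstimulated MI libraries for STC2. ADM, a vasodilator peptide known as a HIF target, fell in both lines, from 40.9, 37.2 and 36.7 CPM to 25.9, 30.7 and 27.04 CPM in MI-spheres (log2 fold-change -0.54 ± 0.079, adjusted p = 6.75e-06) and from 54.6, 50.7 and 52.3 CPM to 27.3, 23.6 and 24.7 CPM in MII-spheres (log2 fold-change -1.09 ± 0.066, adjusted p = 3.22e-20). ANGPTL4, a secreted inhibitor of lipoprotein lipase, was not called in MI-spheres (-0.045 ± 0.051) and fell in MII-spheres (log2 fold-change -0.37 ± 0.048, adjusted p = 3.33e-09).

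Of the intracellular targets, the mitophagy receptors rose. BNIP3 went from 29.8, 27.8 and 30.8 CPM to 118.3, 103.6 and 136 CPM in MI-spheres (log2 fold-change 1.94 ± 0.077, adjusted p = 1.14e-14) and from 13.4, 11.9 and 11.4 CPM to 40.9, 39.3 and 45.7 CPM in MII-spheres (log2 fold-change 1.76 ± 0.080, adjusted p = 1.72e-25), and the interaction was not called (difference in log2 fold-change -0.17 ± 0.12, adjusted p = 0.340). BNIP3L rose by 1.08 ± 0.056 and by 0.41 ± 0.039, and that difference was called. BHLHE40, a transcriptional repressor of the circadian and hypoxia responses, rose from 89.9, 87.7 and 82.97 CPM to 280.2, 319 and 276 CPM in MI-spheres (log2 fold-change 1.67 ± 0.064, adjusted p = 6.43e-15) and by 0.83 ± 0.051 in MII-spheres. NDRG1, a stress-responsive growth regulator, rose from 179, 177 and 176 CPM to 447, 410.3 and 443 CPM in MI-spheres (log2 fold-change 1.21 ± 0.050, adjusted p = 2.65e-14), whereas MII-spheres held 30.5, 30.5 and 26.6 CPM without and 29.1, 26.1 and 28 CPM with TGFβ (log2 fold-change -0.11 ± 0.072, adjusted p = 0.178). DDIT4, an inhibitor of mTORC1, likewise rose from 745, 755 and 736 CPM to 1817, 1713 and 1856 CPM in MI-spheres (log2 fold-change 1.19 ± 0.050, adjusted p = 3.35e-14) and measured 885, 924 and 912 CPM and 906, 873 and 920.0 CPM in MII-spheres (log2 fold-change -0.047 ± 0.033, adjusted p = 0.220). For both genes the MII groups overlapped and the MI groups did not, and the interaction was called, at -1.31 ± 0.081 and -1.22 ± 0.059.

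The other intracellular targets changed less or fell. KDM3A, a histone demethylase, rose by 0.20 ± 0.060 in MI-spheres and measured 0.015 ± 0.052 in MII-spheres, without a call. MXI1, an antagonist of MYC, rose by 0.45 ± 0.064 and 0.24 ± 0.064. INSIG2, which restrains sterol synthesis, fell by about the same amount in both lines (-0.23 ± 0.079 and -0.21 ± 0.063). HILPDA, a lipid droplet protein and HIF target, was not called in either line, at 9.11, 8.29 and 9.46 CPM and 10.8, 8.20 and 11.2 CPM in MI-spheres. ANKRD37 (ENSG00000186352.9, GRCh38 chromosome 4, positions 185396021 to 185400628, plus strand), an ankyrin repeat protein induced by HIF in many cells, fell the most of all members in both lines. It went from 26.8, 29.8 and 29.7 CPM to 11.3, 12.1 and 10.9 CPM in MI-spheres (log2 fold-change -1.41 ± 0.087, adjusted p = 1.89e-11) and from 17.3, 17.6 and 17 CPM to 5.48, 5.40 and 5.30 CPM in MII-spheres (log2 fold-change -1.72 ± 0.11, adjusted p = 9.2e-19), with no overlap of the groups. Its exons share 40.4% of their length with UFSP2.

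**Figure D2:**
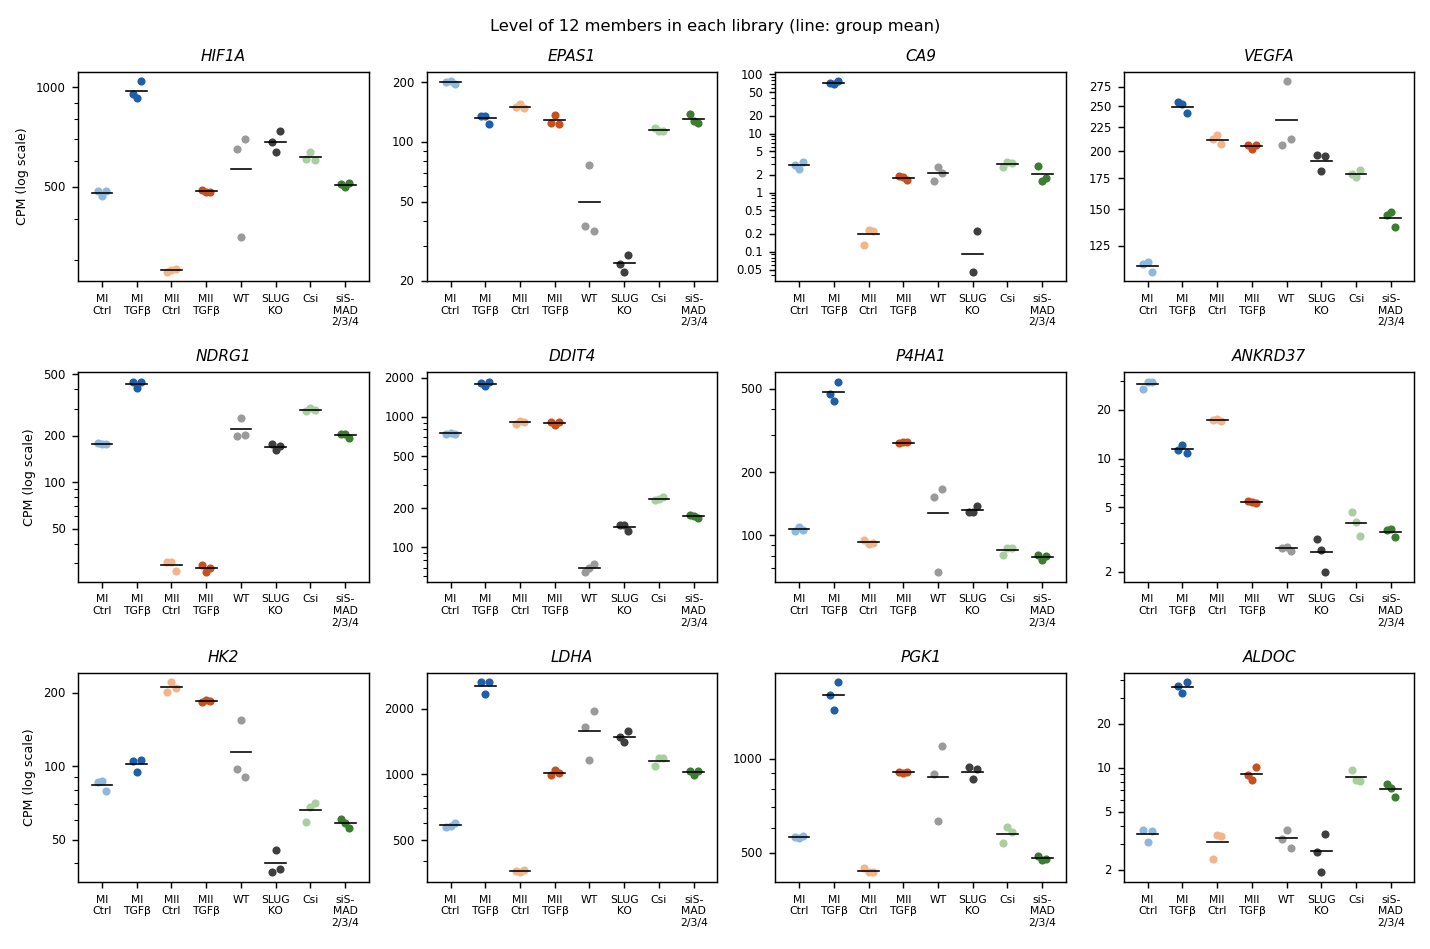
CPM on a log axis (y) of 12 members in each library (points) of the 8 groups (x), with the group mean as a line; a SLUG KO library with CA9 at 0 cannot be drawn. HIF1A, P4HA1, LDHA, PGK1 and ALDOC rise with TGFβ in both lines, VEGFA, NDRG1 and DDIT4 in MI-spheres, and ANKRD37 falls in both.

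Glucose uptake and the switches on glycolytic flux rose in MI-spheres and in part in MII-spheres. SLC2A1, the ubiquitous glucose transporter GLUT1, went from 318, 303 and 303 CPM to 765, 706 and 709 CPM in MI-spheres (log2 fold-change 1.16 ± 0.053, adjusted p = 1.13e-13) and from 229.6, 263 and 241 CPM to 318, 329 and 323 CPM in MII-spheres (log2 fold-change 0.37 ± 0.039, adjusted p = 1.38e-11). PDK1, a kinase that holds pyruvate back from mitochondria, rose by 1.52 ± 0.074 and 0.71 ± 0.070. Of the enzymes that set fructose 2,6-bisphosphate, the strongest activator of phosphofructokinase, PFKFB4 rose in both lines, by 1.81 ± 0.087 and 1.40 ± 0.13. PFKFB3 rose from 50.6, 51.9 and 47.7 CPM to 85.2, 81.7 and 82.5 CPM in MI-spheres (log2 fold-change 0.65 ± 0.058, adjusted p = 7.55e-09) but fell from 112.2, 124.6 and 123.6 CPM to 105.2, 108.4 and 108.1 CPM in MII-spheres (log2 fold-change -0.20 ± 0.045, adjusted p = 0.000160), and the interaction was called (difference in log2 fold-change -0.84 ± 0.075, adjusted p = 1.72e-11). PFKFB4 thereby went from 16.1% ± 1.66 to 30.05% ± 1.21 of the pair, per kilobase, in MI-spheres and from 4.01% ± 0.454 to 11.2% ± 0.977 in MII-spheres. SLC2A3, the transporter GLUT3, held 1 to 17 fragments in a MI library and 0 to 2 in a MII library and was not tested in spheres.

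All 17 glycolytic enzymes rose in MI-spheres. LDHA (ENSG00000134333.14, GRCh38 chromosome 11, positions 18394560 to 18408425, plus strand), which turns pyruvate into lactate, rose from 575, 583 and 598 CPM to 2649, 2342 and 2644 CPM in MI-spheres (log2 fold-change 2.04 ± 0.056, adjusted p = 2e-17) and from 361, 356 and 365 CPM to 992, 1053 and 1011 CPM in MII-spheres (log2 fold-change 1.46 ± 0.034, adjusted p = 3.79e-38). GAPDH, often used to normalise RNA measurements, rose from 2284, 2276 and 2375 CPM to 7408, 6597 and 7552 CPM in MI-spheres (log2 fold-change 1.55 ± 0.057, adjusted p = 2.95e-15) and from 1242, 1213 and 1221 CPM to 2379.6, 2332 and 2378 CPM in MII-spheres (log2 fold-change 0.91 ± 0.032, adjusted p = 1.7e-30). It shares 17.6% of its exon length with another gene. PGK1, which makes ATP from 1,3-bisphosphoglycerate, rose by 1.42 ± 0.058 and 1.01 ± 0.033. PGAM1, the next enzyme, rose by 1.53 ± 0.056 and 1.25 ± 0.040. Other enzymes of the pathway rose too: ENO1 by 1.26 ± 0.054 and 0.93 ± 0.033, TPI1 by 1.19 ± 0.055 and 0.95 ± 0.034, GPI by 1.33 ± 0.054 and 0.93 ± 0.035, and PKM, which makes pyruvate, by 0.91 ± 0.051 and 0.76 ± 0.031. For these enzymes the response was smaller in MII-spheres by the interaction, except for PKM (difference in log2 fold-change -0.15 ± 0.056, adjusted p = 0.0567).

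Paralogous enzymes differed in their values. ALDOC, an aldolase best known from brain (ENSG00000109107.14, GRCh38 chromosome 17, positions 28573115 to 28576948, minus strand), rose from 3.74, 3.08 and 3.69 CPM to 36.01, 32.4 and 38.5 CPM in MI-spheres (log2 fold-change 3.26 ± 0.10, adjusted p = 3.24e-16) and from 2.38, 3.48 and 3.39 CPM to 8.86, 8.27 and 10.1 CPM in MII-spheres (log2 fold-change 1.49 ± 0.16, adjusted p = 1.02e-11). The interaction for ALDOC was the most negative among the members (difference in log2 fold-change -1.76 ± 0.19, adjusted p = 2e-09). ALDOA rose by 0.81 ± 0.063 and 0.20 ± 0.068, but 54.2% of its exon length is shared with other annotated genes, so the aldolases cannot be compared with each other here. HK2 measured 85.8, 87.4 and 79.2 CPM and 105.3, 95.1 and 106.4 CPM in MI-spheres (log2 fold-change 0.20 ± 0.058, adjusted p = 0.00632) but 201, 221 and 209 CPM and 184, 188 and 185 CPM in MII-spheres (log2 fold-change -0.22 ± 0.039, adjusted p = 3.51e-06). HK1, the housekeeping hexokinase, rose in both lines, by 0.44 ± 0.054 and 0.29 ± 0.039. The 3 phosphofructokinases, which catalyse the committed step, rose in both lines: PFKP by 1.01 ± 0.054 and 0.99 ± 0.038, PFKL by 0.32 ± 0.050 and 0.44 ± 0.044, and PFKM by 0.61 ± 0.057 and 0.64 ± 0.065, with no interaction called (differences in log2 fold-change -0.018 ± 0.067, 0.14 ± 0.070 and 0.037 ± 0.085). LDHB, which favours the return from lactate to pyruvate, rose by 0.82 ± 0.060 and 0.74 ± 0.059, less than LDHA, and LDHA went from 82.4% ± 0.871 to 91.6% ± 0.434 of the pair per kilobase in MI-spheres. LDHB shares 33.4% of its exon length with another gene. ENO2, the neuronal enolase, rose by 0.68 ± 0.13 and 1.11 ± 0.16, and made up 0.518% ± 0.0481 of the enolase pair per kilobase in MI-Ctrl and 0.345% ± 0.0279 in MI-TGFβ libraries, and 0.397% ± 0.0158 and 0.453% ± 0.0425 in the MII groups.

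Summed over the 17 enzymes, the share of all counts was 0.871% ± 0.0113 (SD, n = 3) in MI-Ctrl and 1.96% ± 0.0606 in MI-TGFβ libraries. In MII-spheres it was 0.690% ± 0.00528 and 1.16% ± 0.0103. The stimulated groups did not overlap with the unstimulated ones in either line. Without GAPDH the shares were 0.641% and 1.35% in MI- and 0.558% and 0.933% in MII-spheres. In MDA-MB-231 cells the shares lay between 1.01% and 1.40% in single libraries, and the WT libraries overlapped with those labelled SLUG KO.

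**Figure D3:**
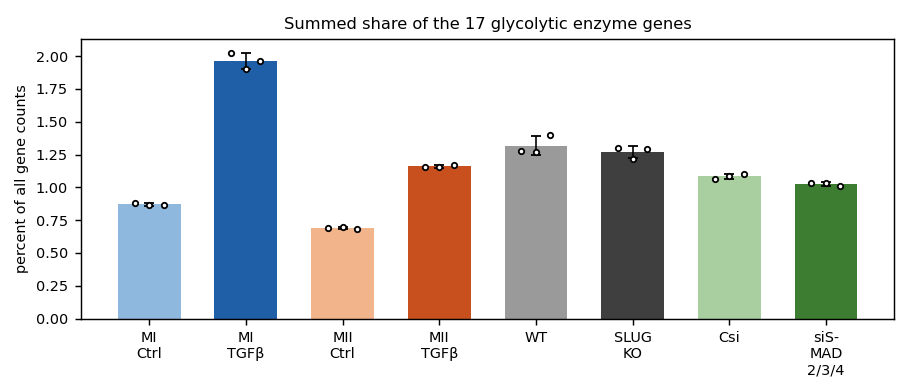
Bars show the mean share of all gene counts (y axis, percent) taken by the 17 glycolytic enzyme genes in each of the 8 groups (x axis), error bars the SD and open circles the 3 libraries. The share was 0.871% in MI-Ctrl and 1.96% in MI-TGFβ, against 0.690% and 1.16% in the MII groups.

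HIFs recognise DNA through the core ACGTG or GCGTG, and the promoter sequence of the members was described for it. Many members were listed because they are known HIF targets. A higher share of the core among them can therefore follow from the choice of genes, and says nothing about their response to TGFβ. RefSeq promoter windows (GRCh38.p14, 250 bases before to 50 after a transcript start, either strand searched) were at hand for 41 of the 46 members, as 70 windows. One of the cores occurred in 50 windows (71.4%, exact 95% binomial interval 59.4 to 81.6%), and in 48.4% of 35116 windows of all genes. ACGTG alone occurred in 44.3% of member windows and 21.4% of all windows. The interval covers counting only, and windows of one gene can overlap. By gene, 24 of the 41 members had ACGTG and 37 had either core in at least 1 window. No share by gene was computed over all genes, and a gene with several windows has more chances to hold a core. These counts therefore cannot be set beside the shares of windows. The 250 bases before the start are shown 5′ to 3′ on the strand of the gene for 5 members that rose steeply in MI-spheres and for ANKRD37 and ADM, which fell. Capitals mark a core on either strand. On the opposite strand the first core reads CACGT. The second core reads CACGC there. CACGTG holds the first core on both strands, and such overlapping matches were both counted. CA9 is from chr9:35673678-35673927, plus strand, LDHA from chr11:18394313-18394562, plus strand, P4HA1 from chr10:73096867-73097116, minus strand, BNIP3 from chr10:131981924-131982173, minus strand, ALDOC from chr17:28576896-28577145, minus strand, ANKRD37 from chr4:185396591-185396840, plus strand, and ADM from chr11:10304823-10305072, plus strand.
CA9: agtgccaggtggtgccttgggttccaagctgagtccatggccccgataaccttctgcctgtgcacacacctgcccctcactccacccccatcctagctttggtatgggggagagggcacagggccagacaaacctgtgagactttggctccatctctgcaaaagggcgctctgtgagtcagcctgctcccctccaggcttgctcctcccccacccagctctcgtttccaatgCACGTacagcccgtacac
LDHA: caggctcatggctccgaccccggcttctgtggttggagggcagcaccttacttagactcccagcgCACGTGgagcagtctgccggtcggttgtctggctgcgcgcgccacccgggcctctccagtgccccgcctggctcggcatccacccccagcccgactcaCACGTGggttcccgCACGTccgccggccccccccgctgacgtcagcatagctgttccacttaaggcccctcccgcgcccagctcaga
P4HA1: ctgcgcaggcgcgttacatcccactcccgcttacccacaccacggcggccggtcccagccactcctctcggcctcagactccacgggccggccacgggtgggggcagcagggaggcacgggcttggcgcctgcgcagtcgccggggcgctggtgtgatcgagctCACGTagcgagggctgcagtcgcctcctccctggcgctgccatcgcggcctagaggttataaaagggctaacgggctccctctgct
BNIP3: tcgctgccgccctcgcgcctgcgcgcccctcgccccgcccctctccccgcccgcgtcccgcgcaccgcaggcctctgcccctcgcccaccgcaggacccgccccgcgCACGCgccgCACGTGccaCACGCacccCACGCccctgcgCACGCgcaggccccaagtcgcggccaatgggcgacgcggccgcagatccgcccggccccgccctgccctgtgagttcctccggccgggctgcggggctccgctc
ALDOC: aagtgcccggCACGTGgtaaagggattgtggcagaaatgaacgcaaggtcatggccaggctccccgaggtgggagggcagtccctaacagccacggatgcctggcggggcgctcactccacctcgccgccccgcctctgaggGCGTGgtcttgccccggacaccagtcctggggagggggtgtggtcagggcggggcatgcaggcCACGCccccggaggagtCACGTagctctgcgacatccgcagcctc
ANKRD37: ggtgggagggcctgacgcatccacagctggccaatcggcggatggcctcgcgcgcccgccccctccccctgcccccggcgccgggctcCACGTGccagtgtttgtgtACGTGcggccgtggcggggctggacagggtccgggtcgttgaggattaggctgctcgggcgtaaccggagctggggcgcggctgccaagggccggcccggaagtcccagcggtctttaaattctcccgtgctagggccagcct
ADM: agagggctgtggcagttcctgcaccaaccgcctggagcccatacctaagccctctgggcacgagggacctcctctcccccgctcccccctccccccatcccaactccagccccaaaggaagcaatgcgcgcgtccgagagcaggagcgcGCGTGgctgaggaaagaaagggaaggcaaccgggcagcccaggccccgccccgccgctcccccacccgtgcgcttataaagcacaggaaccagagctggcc
All 7 stretches hold a core. LDHA holds 5 ACGTG matches over both strands, BNIP3 2 ACGTG and 4 GCGTG, and ALDOC 3 and 2. CA9 holds 1 ACGTG, close to the start, and P4HA1 also 1. ANKRD37, which fell in both lines, holds 3 ACGTG matches, and ADM, which also fell, holds 1 GCGTG. Both the rising and the falling genes shown here thus hold a core. The matches are letters in a window, and no binding was measured.

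The next comparisons asked how the lines differed without and with TGFβ. Most members were lower in MII-spheres, led by CA9 and NDRG1, whereas HK2, PFKFB3 and INSIG2 were higher in both states. These comparisons use the same libraries as those above, so they restate the same values from another side and give no independent evidence. In unstimulated spheres 31 members were lower and 8 higher in MII than in MI, where 32.5% of all 17862 genes tested were lower and 31.7% higher, and the median log2 fold-change was -0.47 over members against 0.017 over all genes. With TGFβ 38 members were lower and 3 higher, where 31.6% of 15878 genes were lower and 31.1% higher, and the medians were -0.77 and 0.0044. In the plot of MII- against MI-spheres, the TGFβ-stimulated points lie further to the left for most members.

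**Figure D4:**
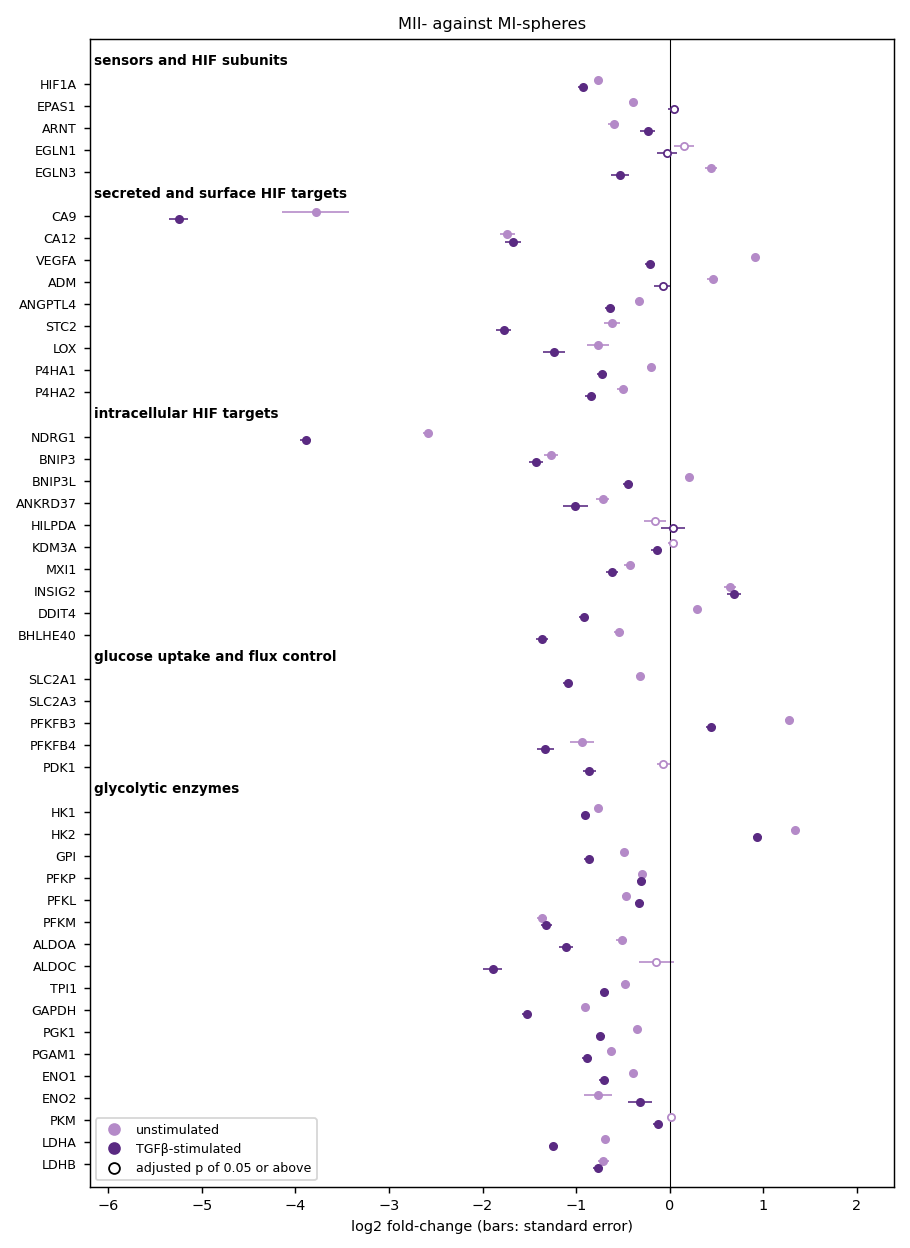
Log2 fold-change (x axis) of MII- against MI-spheres for each member (y axis, grouped by role), unstimulated and TGFβ-stimulated, with standard errors as bars and open circles for an adjusted p of 0.05 or above; 3 libraries a group. CA9 and NDRG1 are the lowest points, and HK2 and PFKFB3 lie to the right of 0 in both states.

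CA9 and NDRG1 differed the most between the lines. On the log2 scale, CA9 differed by -3.78 ± 0.35 without and -5.25 ± 0.11 with TGFβ (MII against MI), where the unstimulated MII value rests on 13 fragments in 3 libraries. NDRG1 differed by -2.59 ± 0.050 and -3.89 ± 0.059. CA12 was lower too (-1.73 ± 0.082 and -1.67 ± 0.087), and no difference of its TGFβ responses was called (difference in log2 fold-change 0.056 ± 0.12, adjusted p = 0.801). BNIP3 (-1.27 ± 0.078 and -1.43 ± 0.075) and PFKM, the muscle-type phosphofructokinase (-1.37 ± 0.057 and -1.32 ± 0.060), were lower in both states. HIF1A (-0.77 ± 0.035), HK1 (-0.76 ± 0.039), LDHA (-0.69 ± 0.034) and GAPDH (-0.90 ± 0.034) were also among the lower genes with the smallest adjusted p without TGFβ. With TGFβ, GAPDH (-1.53 ± 0.048), STC2 (-1.78 ± 0.080), BHLHE40 (-1.36 ± 0.064), LDHA (-1.24 ± 0.049) and SLC2A1 (-1.09 ± 0.049) joined CA9, NDRG1 and PFKM in that list. ALDOC was not called without TGFβ (log2 fold-change -0.14 ± 0.19, adjusted p = 0.509) and was lower with it (log2 fold-change -1.89 ± 0.097, adjusted p = 4.55e-14).

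A few members were higher in MII-spheres. Without TGFβ these were HK2 (log2 fold-change 1.34 ± 0.042, adjusted p = 1.01e-33), PFKFB3 (log2 fold-change 1.28 ± 0.049, adjusted p = 6.1e-30), VEGFA (log2 fold-change 0.91 ± 0.039, adjusted p = 7.37e-28), INSIG2 (0.65 ± 0.064), ADM (0.46 ± 0.058), EGLN3 (0.44 ± 0.069), DDIT4 (0.29 ± 0.033) and BNIP3L (0.20 ± 0.039). With TGFβ, HK2 (0.93 ± 0.050), INSIG2 (0.68 ± 0.076) and PFKFB3 (0.44 ± 0.054) were still higher, whereas VEGFA, EGLN3, DDIT4 and BNIP3L were lower in MII than in MI and ADM was not called. Groups did not overlap for any called member in either state, and the share of all called genes without overlap was not computed. HK2 made up 23.8% ± 0.250 of the hexokinase pair per kilobase in MI-Ctrl and 57.2% ± 0.434 in MII-Ctrl, and 20.9% ± 0.808 and 48.5% ± 0.0968 with TGFβ. PFKM made up 17.3% ± 0.430 of the phosphofructokinases in MI-Ctrl and 9.54% ± 0.494 in MII-Ctrl. The line and its HRAS transformation cannot be told apart in this design. The sums of all 5 marker lists given above also differed between MI-Ctrl and MII-Ctrl libraries without overlap, and their part in these differences was not tested.

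Genes of the same pathways outside the 46 were compiled as 2 lists. Of 29 tested among 32 other hypoxia genes, 18 were higher and 5 lower with TGFβ in MI-spheres (median log2 fold-change 0.38), and 16 and 6 in MII-spheres (median 0.28). Of all genes tested 28.7% were higher and 27.4% lower in MI-spheres, and 29.9% and 27.6% in MII-spheres, so that the shares of this list lay above that background for higher genes (62.1% and 55.2%) and below it for lower genes (17.2% and 20.7%). TMEM45A rose from 11.2, 9.39 and 11.1 CPM to 141, 127.2 and 160.3 CPM in MI-spheres (log2 fold-change 3.67 ± 0.084, adjusted p = 1.06e-18) and by 1.73 ± 0.048 in MII-spheres, AK4, a mitochondrial adenylate kinase, by 1.23 ± 0.052 in MI-spheres, and PLOD2, a collagen lysyl hydroxylase, by 1.05 ± 0.042 in MII-spheres. EGLN2, the third oxygen-sensing hydroxylase, was lower (-1.02 ± 0.11 and -0.68 ± 0.077), as was CITED2, a competitor of HIFs for their coactivator (-0.42 ± 0.057 and -0.43 ± 0.046). KDM4C (-0.24 ± 0.058) in MI- and WSB1 (-0.47 ± 0.042) in MII-spheres completed the lists of the smallest adjusted p.

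Of 27 tested among 36 other glucose and lactate genes, 16 were higher and 8 lower in MI-spheres (median 0.26), and 16 and 4 in MII-spheres (median 0.23). The share of this list that was lower in MI-spheres, 29.6%, was near the 27.4% of all genes, and the shares that were higher, 59.3% in each line, lay above 28.7% and 29.9%. SLC16A1, the lactate transporter MCT1, rose from 154, 146 and 146 CPM to 457, 414 and 501 CPM in MI-spheres (log2 fold-change 1.54 ± 0.058, adjusted p = 5.04e-15) and by 0.72 ± 0.043 in MII-spheres. SLC2A12, a glucose transporter, rose by 1.77 ± 0.076 in MI-spheres, GBE1, the glycogen branching enzyme, by 1.18 ± 0.057 and 0.68 ± 0.058, and PDK3 by 0.56 ± 0.046 in MII-spheres. PDK4, a kinase of the same family as PDK1, went the other way, from 144, 142 and 145 CPM to 33.1, 32.5 and 35.3 CPM in MI-spheres (log2 fold-change -2.18 ± 0.056, adjusted p = 7.89e-18), with a smaller fall in MII-spheres (-0.39 ± 0.040). SLC16A7, the transporter MCT2 (-0.97 ± 0.052 and -0.38 ± 0.041), PGD of the pentose phosphate pathway (-0.69 ± 0.050 in MI-spheres) and PDK2 (-0.85 ± 0.14 in MII-spheres) were lower as well.

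Between the lines, 17 of 29 other hypoxia genes were higher and 9 lower in unstimulated MII- than MI-spheres, and 12 and 9 with TGFβ. The lower share, 31.0% in both states, was near the 32.5% and 31.6% of all genes, and the higher shares, 58.6% and 41.4%, compare with 31.7% and 31.1%. ERRFI1, a feedback inhibitor of the EGF receptor, was higher by 1.61 ± 0.040 and 1.51 ± 0.050, TMEM45A and the lipoprotein receptor VLDLR by 2.45 ± 0.073 and 1.96 ± 0.10 without TGFβ, and HMOX1, heme oxygenase, and CITED2 by 1.86 ± 0.12 and 0.82 ± 0.059 with it. The oxidoreductase ERO1A (-0.44 ± 0.046 and -0.53 ± 0.059), TFRC, the transferrin receptor (-0.54 ± 0.036 without), and FAM162A (-1.16 ± 0.057 with TGFβ) were lower. The medians of this list were 0.35 and 0.056. Of 27 other glucose and lactate genes 7 were higher and 17 lower without TGFβ (25.9% and 63.0%), and 12 and 12 with it (44.4% each), beside the same shares of all genes. PYGB, a glycogen phosphorylase, was higher by 1.88 ± 0.035 and 1.64 ± 0.047, SLC2A12 by 2.47 ± 0.065 and PDK3 by 1.61 ± 0.056 without, and PDK4 by 2.16 ± 0.057 and BPGM by 1.66 ± 0.074 with TGFβ. SLC16A1 (-0.69 ± 0.042 and -1.49 ± 0.052), PGM2 (-0.95 ± 0.045 and -1.34 ± 0.065), PDHA1 (-0.63 ± 0.048 without) and PGM1 (-0.87 ± 0.049 with TGFβ) were lower.

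In MDA-MB-231 cells labelled SLUG KO, 5 of 46 members were called, CA9, CA12 and HK2 as lower and DDIT4 and SLC2A3 as higher, where 1.89% of all 17428 genes tested were lower and 1.45% higher. The median log2 fold-change was -0.12 over members and -0.052 over all genes. CA12 (ENSG00000074410.14, GRCh38 chromosome 15, positions 63321378 to 63381846, minus strand) fell from 30.5, 39.8 and 28.5 CPM to 5.80, 5.89 and 7.11 CPM (log2 fold-change -2.42 ± 0.22, adjusted p = 0.00285). HK2 (ENSG00000159399.10, GRCh38 chromosome 2, positions 74834127 to 74893359, plus strand) fell from 97.1, 155 and 90.3 CPM to 36.7, 45.5 and 38.05 CPM (log2 fold-change -1.54 ± 0.26, adjusted p = 0.0228). CA9 held 42, 66 and 53 fragments in WT and 0, 1 and 5 in the libraries labelled SLUG KO (log2 fold-change -4.56 ± 0.73, adjusted p = 0.0201), so its fold-change rests on few counts. The groups did not overlap for CA12, HK2 or CA9. DDIT4 rose from 64.5, 69.2 and 74.01 CPM to 148, 148 and 133.0 CPM (log2 fold-change 1.02 ± 0.15, adjusted p = 0.0161), and SLC2A3, the high-affinity transporter, from 30.96, 18.5 and 33.6 CPM to 69.6, 64.4 and 72.5 CPM (log2 fold-change 1.29 ± 0.25, adjusted p = 0.0385). In the plot of these libraries the groups do not overlap for any of the 5 genes. They do not overlap for EPAS1 either, which was not called, so this does not set the called genes apart. The share of all called genes without overlap was not computed.

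**Figure D5:**
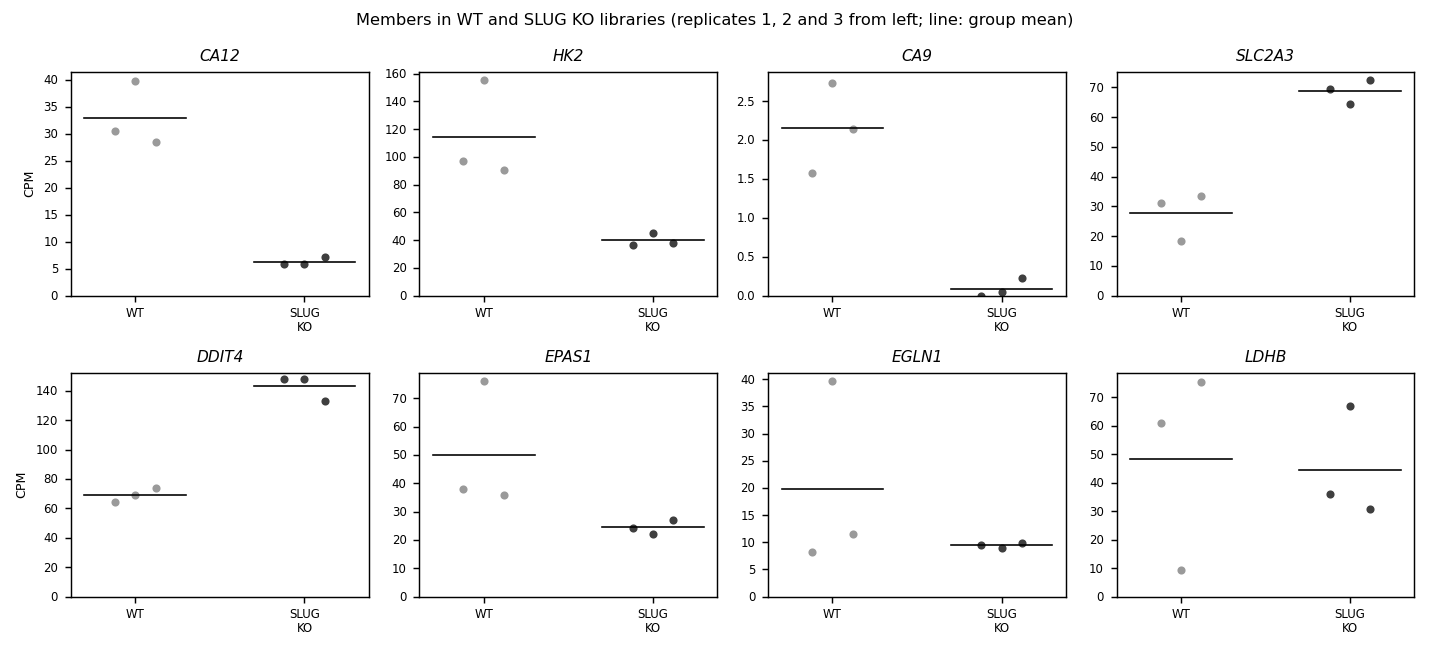
CPM (y axis, from 0) of 8 members in the 3 WT and 3 SLUG KO libraries (x axis; points are replicates 1, 2 and 3 from the left, lines group means). CA12, HK2, CA9, SLC2A3 and DDIT4 separate the groups, as does EPAS1, which was not called. For EGLN1 and LDHB, WT replicate 2 lies far from replicates 1 and 3.

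WT replicate 2 stood apart among the members too. LDHB measured 60.9, 9.25 and 75.3 CPM in WT replicates 1, 2 and 3, P4HA1 152, 66.7 and 166 CPM and EGLN1 8.23, 39.6 and 11.6 CPM. Without that library 7 members were higher and 17 lower, where 16.8% of all 17909 genes tested were higher and 14.4% lower. The calls of CA9 (-4.34 ± 0.61, adjusted p = 5.73e-05), CA12 (-2.25 ± 0.12), HK2 (-1.24 ± 0.11), DDIT4 (1.04 ± 0.094) and SLC2A3 (1.08 ± 0.096) were kept. EPAS1 (-0.60 ± 0.11), EGLN3 (-0.77 ± 0.15), GAPDH (-0.52 ± 0.099) and PDK1 (-0.51 ± 0.10) were then called as lower and MXI1 (0.84 ± 0.10) as higher. With each other library left out in turn, 0 or 1 member was called as higher and 1 to 3 as lower. CA12 was called in 14 of 14 alternatives, CA9 in 9 of 13, HK2 in 9 of 14, DDIT4 in 8 of 14 and SLC2A3 in 6 of 14. The 6 basal markers summed to 965 to 1030 CPM in WT and 1159 to 1266 CPM in the libraries labelled SLUG KO, with KRT5, KRT14 and CDH3 under 1 CPM in both. The 6 mesenchymal markers summed to 3314 to 4266 CPM in WT and 2606 to 2712 CPM in the libraries labelled SLUG KO, also without overlap. The part of either list was not tested.

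Knockdown of SMAD2, SMAD3 and SMAD4 in MDA-MB-231 cells, which asked for the part of these TGFβ effectors, moved members by small amounts. NDRG1, DDIT4, BHLHE40 and HIF1A were lower and MXI1, ARNT and ANGPTL4 higher. Of 46 members 24 were lower and 8 higher, where 19.7% of all 17696 genes tested were lower and 16.3% higher, and the median log2 fold-change was -0.18 over members and 0.0038 over all genes. In this pooled fit no member fell by more than 1.47-fold. The files name 2 flow cells, where the labels give 1 batch: siSMAD2/3/4 replicates 1 and 2 lay on one and the other 4 libraries on the other. Within the shared flow cell, with 1 siSMAD2/3/4 library taken to vary as the Csi libraries do, 18 members were lower and 7 higher, where 11.6% and 9.06% of 19050 genes were. With the flow cell as a term in the fit, 22 were lower and 7 higher, where 14.1% and 10.6% of all genes were. The falls of CA9, NDRG1 and ALDOA were 1.72-, 1.51- and 1.501-fold within the shared flow cell. The 8 luminal markers summed to 1858 to 1917 CPM in Csi and 2173 to 2271 CPM in siSMAD2/3/4 libraries, with ESR1 and PGR under 1 CPM in both. The other lists that did not overlap were the basal (1048 to 1104 and 999.5 to 1033 CPM), mesenchymal (5262 to 5307 and 5336 to 5667 CPM), endothelial (10.9 to 13.2 and 7.77 to 8.58 CPM) and fibroblast markers (95.02 to 98.02 and 118.96 to 124.2 CPM), and their part was not tested. In both groups 2 of 4 endothelial and 4 of 6 fibroblast markers reached 1 CPM. Of the other hypoxia genes 13 of 30 tested were lower and 4 higher, and of the other glucose and lactate genes 11 of 30 were lower and 9 higher (19.7% and 16.3% of all genes). In the libraries labelled SLUG KO the counts were 3 lower and 0 higher of 29 for the first list, and 1 and 2 of 29 for the second (edgeR, with 1.89% and 1.45% of all genes). These counts rest on the fit that includes WT replicate 2.

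NDRG1 fell from 288, 302 and 294 CPM to 206, 205 and 193 CPM (log2 fold-change -0.55 ± 0.039, adjusted p = 6.74e-13; -0.59 ± 0.062 within the shared flow cell). DDIT4 fell from 229.7, 235 and 242 CPM to 177, 175 and 168 CPM (log2 fold-change -0.45 ± 0.039, adjusted p = 8.16e-11; -0.47 ± 0.063 within the flow cell). BHLHE40 (-0.41 ± 0.041; -0.41 ± 0.067), LOX (-0.51 ± 0.055; -0.42 ± 0.081) and PFKP (-0.32 ± 0.040; -0.35 ± 0.062) were the next by adjusted p, and were called in both fits. HIF1A fell from 606, 636 and 602 CPM to 508, 499.6 and 512 CPM (log2 fold-change -0.28 ± 0.037, adjusted p = 2.77e-07) and VEGFA from 178, 176 and 182 CPM to 146, 148 and 138 CPM (log2 fold-change -0.32 ± 0.041, adjusted p = 2.15e-07). CA9, with 2.72, 3.27 and 3.20 CPM and 2.87, 1.60 and 1.76 CPM, was called although its groups overlapped (log2 fold-change -0.56 ± 0.20, adjusted p = 0.0241), as did those of HK2. Among the enzymes 10 of 17 were lower, by at most 1.36-fold (ALDOA) in the pooled fit, and PFKM was higher.

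The members that rose with the siRNAs were led by MXI1, from 33.02, 33.4 and 33.2 CPM to 47.1, 48.2 and 50.4 CPM (log2 fold-change 0.54 ± 0.056, adjusted p = 2.95e-09; 0.62 ± 0.085 within the flow cell), and ARNT, from 51.6, 52.3 and 52.5 CPM to 72.2, 69.4 and 69.8 CPM (log2 fold-change 0.43 ± 0.048, adjusted p = 1.11e-08; 0.44 ± 0.075). In the same order, pooled and within the flow cell, PFKM (0.36 ± 0.050; 0.39 ± 0.077), ANGPTL4 (0.90 ± 0.13; 0.86 ± 0.19) and CA12 (0.26 ± 0.042; 0.30 ± 0.065) followed. ANGPTL4 measured 4.19, 4.45 and 3.07 CPM in Csi and 7.10, 7.76 and 6.996 CPM in siSMAD2/3/4 libraries, without overlap. EPAS1 rose in the pooled fit (log2 fold-change 0.17 ± 0.045, adjusted p = 0.00289) and was not called within the flow cell (0.12 ± 0.067, adjusted p = 0.206). GAPDH, GPI, HK1, PKM, SLC2A1 and PFKFB3 differed by 0.045 or less on the log2 scale and were not called.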

How the data were processed

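Total RNA libraries (TruSeq stranded total RNA with RiboZero Gold, paired-end) were made by the authors, who used Trimmomatic for trimming, STAR for alignment to GRCh38 and featureCounts (Subread 2.0.0) with GENCODE release 38 for counting. Per the file headers, the deposited values are raw counts per gene, with both ends mapped, a mapping quality of at least 30 and no strand setting; fragments shared by genes or mapping to several places were not counted, which removes counts from overlapping genes. The 16 ATAC-seq samples were not analysed here. Symbols came from GENCODE release 44.

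For a comparison of groups, its 6 libraries alone entered the fit, and for the interaction the 12 sphere libraries, with edgeR 4.0.16 in R 4.3.3: filterByExpr, TMM scaling, quasi-likelihood test and Benjamini-Hochberg adjustment over all genes tested, called under 0.05. Standard errors are the absolute log2 fold-change over the square root of F. CPM were scaled by TMM over all 24 libraries, so ratios of printed levels lie above fitted fold-changes, by 0.083 for MI-spheres and 0.036 for MII-spheres on the log2 scale (median of genes). Shares of paralogs use CPM per kilobase of exon. Alternatives used DESeq2 1.42.0, other scalings and filters, a gene length offset, a replicate block, the flow cell and leave-one-out fits. Scripts were tested on simulated counts. Nothing pairs the libraries: same-numbered ones did not deviate together (correlations of -0.185 to 0.0517).

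The members and lists were chosen with earlier results of these data known. All members were named, by role. Full statistics were given for the 8 members smallest in adjusted p in each direction of a sphere comparison, the 5 smallest in MDA-MB-231 comparisons, the HIF subunits and sensors, paralog pairs, and members called in opposite directions in MI and MII. From the other lists the 3 smallest per direction and sphere comparison were named, except 1 item that is not reported here, and HRAS, SNAI2 and the SMADs as checks of labels. Further values were chosen after they were seen.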

Additional observations from a re-analysis of the deposited data

Results flagged for a closer look

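The responses to TGFβ of 29 members differed between MII- and MI-spheres by the test of the interaction over 12 libraries (edgeR, adjusted p under 0.05), against 22.4% of all genes tested. Values are log2 fold-changes in MII-spheres minus those in MI-spheres. Of the HIF targets, CA9 (-1.48), NDRG1 (-1.31), DDIT4 (-1.22), STC2 (-1.16) and VEGFA (-1.13) differed by more than 1, BHLHE40 by -0.82, BNIP3L by -0.66, ADM by -0.54, P4HA1 by -0.53, LOX by -0.48, P4HA2 by -0.35 and ANGPTL4 by -0.31. Of the sensors and subunits, EGLN3 differed by -0.98, HIF1A by -0.17, and EPAS1 (0.43) and ARNT (0.36) were the members with a positive value. Among genes of glucose uptake and flux, PFKFB3 differed by -0.84, PDK1 by -0.80 and SLC2A1 by -0.78. Of the enzymes, ALDOC differed by -1.76, GAPDH by -0.63, ALDOA by -0.60, LDHA by -0.56, HK2 by -0.41, PGK1 by -0.40, GPI by -0.39, ENO1 by -0.32, PGAM1 by -0.27 and TPI1 by -0.23. For EPAS1 the positive value means a smaller fall in MII-spheres, whereas ARNT was lower in MI-spheres and not called in MII-spheres. For EGLN3 and ADM the negative value means a larger fall there, and ANGPTL4 fell in MII-spheres alone. CA9 rests on 2 to 7 fragments in the unstimulated MII libraries.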

How the results depend on the processing

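Counts of members called in the 4 sphere comparisons and with siSMAD2/3/4 stayed within 1.5 times of the values above, in each direction, under every alternative, and so did the members with a lower response in MII-spheres. Members with a higher response were 1 to 2 over the leave-one-out fits. In SLUG KO against WT, members called as higher were 1 with at least 10 counts in every library, and 0 to 7 over the leave-one-out fits; members called as lower were 1 to 17, and the highest counts were those without WT replicate 2. There P4HA1, PFKP and PFKL turned direction and were called. Over the leave-one-out fits their log2 fold-changes ran from -0.28 to 0.24, -0.15 to 0.27 and -0.22 to 0.30. Under total counts in place of TMM, chosen after the data were seen, KDM3A turned to -0.12 in MII-spheres (adjusted p = 0.0499). Without TMM the summed CPM of the enzymes was 19645 in MI-TGFβ, 6895 in MII-Ctrl and 11588 in MII-TGFβ (22919, 6432 and 12117 with it). Some calls of single members were lost when 1 library was left out (adjusted p in brackets). In MI-spheres these were EGLN1 without MI-Ctrl replicate 2 (0.074) or 3 (0.066), EGLN3 without MI-Ctrl replicate 1 (0.093) or MI-TGFβ replicate 2 (0.082), and INSIG2 without MI-Ctrl replicate 1 or 3 or MI-TGFβ replicate 2 (0.051 to 0.127). In MII-spheres they were LOX without MII-TGFβ replicate 1 (0.069) or 2 (0.087), and ALDOA (0.128) and INSIG2 (0.060) without MII-TGFβ replicate 3. For the interaction they were ARNT without MII-TGFβ replicate 1 (0.061), CA9 without MII-Ctrl replicate 2 (0.210) or 3 (0.074), HIF1A without any MII-Ctrl library or MI-Ctrl replicate 2 (0.064 to 0.093) and LOX without 5 of 12 libraries (0.051 to 0.092). In stimulated MII- against MI-spheres ARNT, KDM3A, ENO2 and PKM each lost the call without 2 to 4 of 6 libraries, and with siSMAD2/3/4 ALDOC, CA9, EPAS1, HK2 and KDM3A without 1 to 4. With ACGTG alone the share of member windows was 44.3%.

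Libraries with the same replicate number correlated between -0.185 and 0.0517 in their deviations from group means in the comparisons of 6 libraries, so the numbers did not pair them. With the replicate block, 37 members were higher and 6 lower in MI- and 29 and 8 in MII-spheres. In SLUG KO against WT the block left 0 higher and 3 lower, and 0 and 1 with a gene length offset added. Depth limits CA9 in MII-spheres and SLUG KO cells, SLC2A3 in spheres, and STC2 in MDA-MB-231 cells.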

Other observations

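Levels of several members lay far apart between the sphere lines and MDA-MB-231 cells. Cell line and culture form differ together there and cannot be told apart, and Csi and siSMAD2/3/4 libraries also differ from the spheres in the sequencing batch, so no test was made. For sphere and WT libraries no flow cell was read, so a shared flow cell is not shown. SLC2A3 measured 18.5 to 75.3 CPM in MDA-MB-231 libraries and at most 0.724 CPM in spheres. ENO2 measured 54.6, 79.3 and 55.5 CPM in WT and 100.97, 96.8 and 98.2 CPM in Csi libraries, against 5.33, 6.26 and 5.92 CPM in MI-Ctrl. Per kilobase it made up 2.19% ± 0.659 of the enolases in WT and 4.26% ± 0.204 in Csi libraries. STC2 and ANGPTL4 went the other way, with 0.872, 0.949 and 0.841 CPM and 4.19, 4.45 and 3.07 CPM in Csi libraries and 24.3, 22.9 and 19.8 CPM and 143, 141 and 143 CPM in MI-Ctrl. DDIT4 measured 64.5, 69.2 and 74.01 CPM in WT and 229.7, 235 and 242 CPM in Csi libraries, against 745, 755 and 736 CPM in MI-Ctrl. BNIP3 made up 53.9% ± 0.576 of the BNIP3 and BNIP3L pair per kilobase in WT libraries, 41.5% ± 1.14 in Csi libraries and 14.9% ± 0.619 in MI-Ctrl.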
